A study of Mus musculus with 41 samples.

Results

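Col2a1 encodes the alpha 1 chain of type II collagen, and its locus was examined here across 8 deposited lists of ChIP-seq peaks, the places where DNA bound by a precipitated protein piled up. A peak was taken as belonging to the locus when its centre lay between positions 97700000 and 97950000 of mouse chromosome 15 (build mm9), a window of 250 kb around the gene, which lies on the minus strand between about 97806000 and 97835100. The 5′ end of the gene is therefore at the higher coordinate, and upstream means towards 97950000. The window held 91 of the 155773 peaks of all lists: 14 of Runx2 and 15 of Foxa2 in chondrocytes, 6 of Runx2 and 1 of Jun in osteoblasts, and the rest in 4 lists from 3T3 cells.

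The series profiled bone and cartilage cells of the mouse with 41 libraries, of which 10 were ChIP samples, 7 were inputs, 1 was an IgG control and 23 were ATAC-seq samples that were not analysed here. Runx2 was precipitated with an antibody to FLAG from C57BL/6 Runx2-BioFL/+ animals, which carry a tagged Runx2 knock-in allele, at postnatal day 1: rib chondrocytes gave 2 libraries and calvarial osteoblasts gave 2. Foxa2 came from rib chondrocytes and Jun from calvarial osteoblasts of wild-type C57BL/6 mice of the same age, with 1 library each. The 3T3 cells, a mouse fibroblast line, overexpressed either the tagged Runx2BioFL or GFP, and FLAG was precipitated at day 0 or after 3 days in osteogenic medium with ascorbic acid phosphate, β-glycerophosphate and 100 ng/ml recombinant human BMP-2, with 1 library each.

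Type II collagen is the main fibrillar collagen of cartilage, made by chondrocytes before hypertrophy and lowered as they become hypertrophic. Its transcription depends on Sox9, acting with Sox5 and Sox6 through enhancers in the first intron and upstream of the gene. Runx2 is the Runt-family factor required for osteoblast formation and for chondrocyte hypertrophy, Foxa2 is a forkhead factor that promotes hypertrophy, and Jun is a subunit of the AP-1 dimer.

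Each group had 1 list, so no difference between lists could be set against a spread between samples, and no test was made. Intervals below are exact Poisson or exact binomial 95% intervals and cover counting error only. The lists hold positions without heights or p-values, and the depth behind them is not given in the sources used here. All chondrocytes were from ribs and all osteoblasts from calvaria, so cell type and skeletal site cannot be told apart, nor can factor and cell type for Foxa2 and Jun. No expression values were used, so the labelled cell types were not checked against their markers. The labels crossed a pair of the 3T3 lists: the list named for Runx2 at day 0 was tied to the GFP day 3 sample, and the list named for GFP at day 3 to the Runx2 day 0 sample. Both are called here by the names they carry, as the Runx2 day 0 list and the GFP day 3 list. What a value given for either list stands for depends on that choice, and the exchange is stated only for some.

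**Figure D1:**
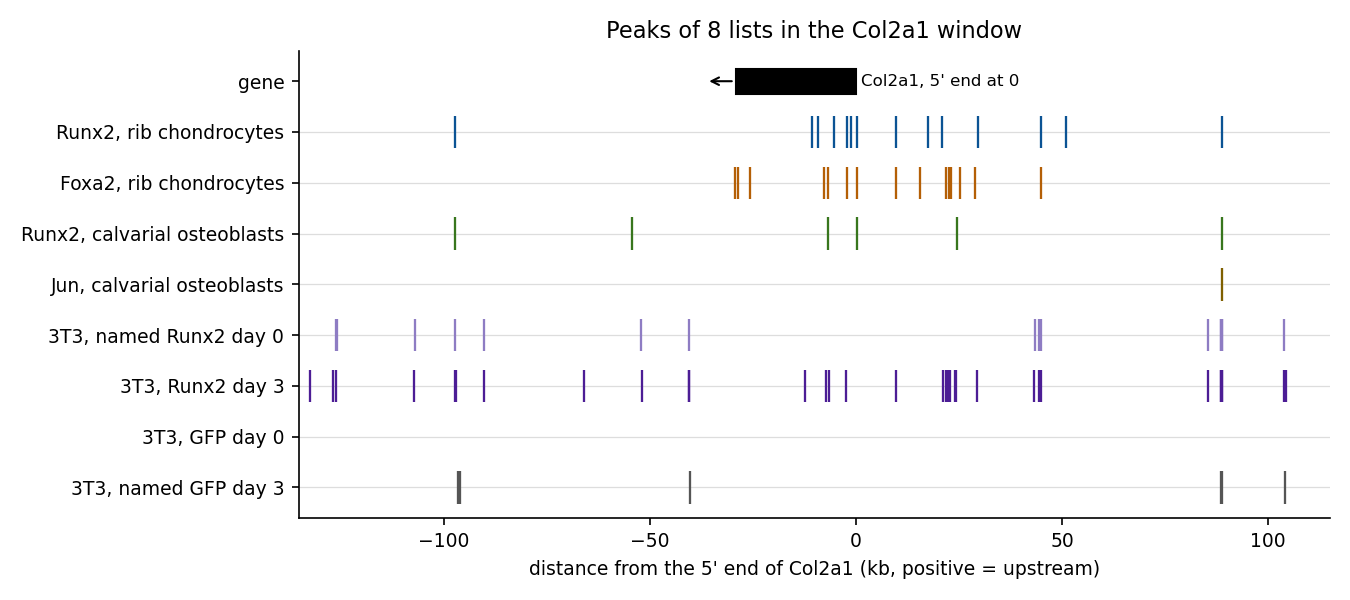
Positions of all 91 peaks in the 250-kb window, 1 row per list, plotted as distance in kb from the 5′ end of Col2a1 with the gene drawn to scale. Of the 15 Foxa2 peaks, 5 sit in the gene, 9 upstream and 1 just past the 3′ end, the Runx2 day 0 list has no peak in the gene, and 6 of the 8 lists meet 88.7 kb upstream.

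The Col2a1 window was dense in peaks of both chondrocyte lists. Chondrocyte Runx2 had 14 peaks (interval 7.65 to 23.5), against a mean of 2.04 over the 7555 windows of 250 kb that tile the genome and hold a peak of any list. At least 14 such peaks occurred in 0.185% of those windows. Foxa2 had 15 peaks (8.40 to 24.7) against a mean of 1.95, a count reached in 0.212% of windows. Only 4 of the 7555 windows, 0.0529%, held at least as many peaks of both. The Col2a1 window was placed around the gene and is not one of the 7555. Those were cut without regard to genes and include windows that hold parts of it. On a shifted grid the shares were 0.159%, 0.199% and 0.0265% in the same order.

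In osteoblasts the same window was less exceptional. Runx2 had 6 peaks (2.20 to 13.1) against a mean of 1.36, a count reached in 4.39% of windows. Jun had 1 peak (0.0253 to 5.57) against a mean of 1.98, and 62.9% of windows held at least 1. The intervals of the 14 chondrocyte and 6 osteoblast Runx2 peaks overlapped, whereas those of the 15 Foxa2 peaks and the single Jun peak did not. The Jun count depended on the window edges, as 100 kb more at each end gave 7 Jun and 20 Foxa2 peaks.

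Among the 3T3 lists, Runx2 at day 3 had 33 peaks (22.7 to 46.3) against a mean of 6.64, a count reached in 1.50% of windows. The Runx2 day 0 list had 16 (9.15 to 26.0), reached in 4.49% of windows, and the GFP day 3 list had 6 (2.20 to 13.1), reached in 12.5%. Read under the samples to which the labels tie them, those 2 counts trade places. Joining peaks that overlap within a list turned the 33 into 30 and the 16 into 13. The GFP day 0 list, with 2475 peaks in all, had none in the window (0 to 3.69), against a mean of 0.328.

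**Figure D2:**
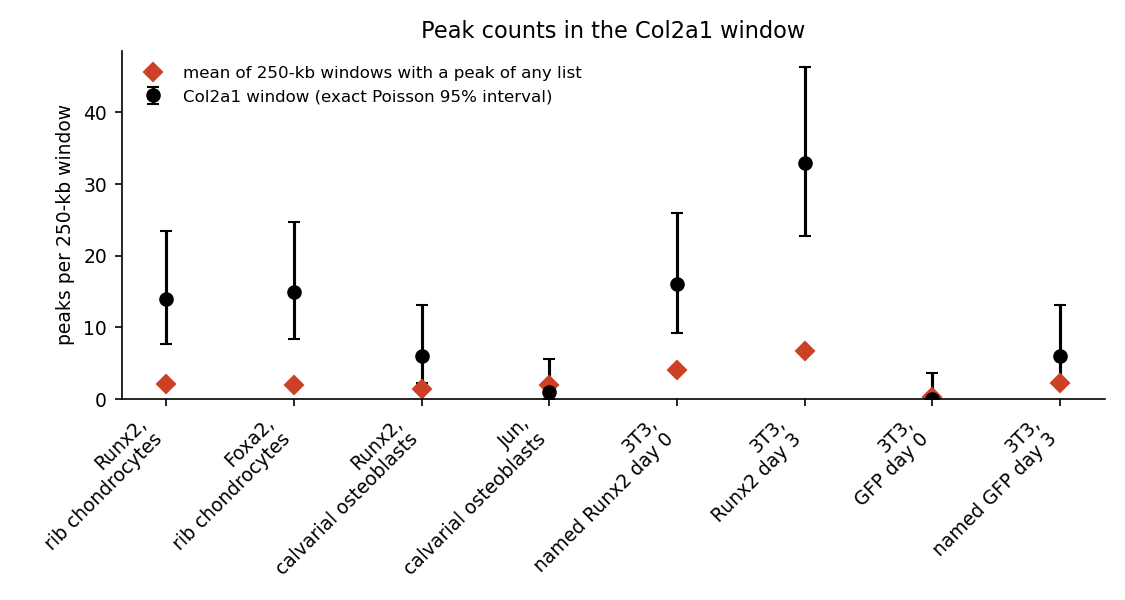
Peaks of each list in the Col2a1 window, with exact Poisson 95% intervals covering counting error only, beside the list's mean over the 7555 windows. Both chondrocyte counts lie far above their means, and the Jun count lies below its mean of 1.98.

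List sizes ran from 2475 to 50180 peaks, and dividing by them left Foxa2 and chondrocyte Runx2 in front. Per 10000 peaks of its list, the window took 10.2 of Foxa2 (5.70 to 16.8), 9.10 of chondrocyte Runx2 (4.97 to 15.3), 6.58 of 3T3 Runx2 at day 3 (4.53 to 9.24) and 5.86 of osteoblast Runx2 (2.15 to 12.8). Lower came the Runx2 day 0 list with 5.16 (2.95 to 8.38), the GFP day 3 list with 3.57 (1.31 to 7.77) and Jun with 0.669 (0.0169 to 3.73). The short GFP day 0 list had 0 (0 to 14.9), an interval that spans the values of all other lists. Neighbours in that order overlapped within counting error, while Jun lay below Foxa2, chondrocyte Runx2 and 3T3 Runx2 at day 3 without overlap. The Jun value rests on the 1 peak of this window, and these scaled counts were not recomputed for a wider one.

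**Figure D3:**
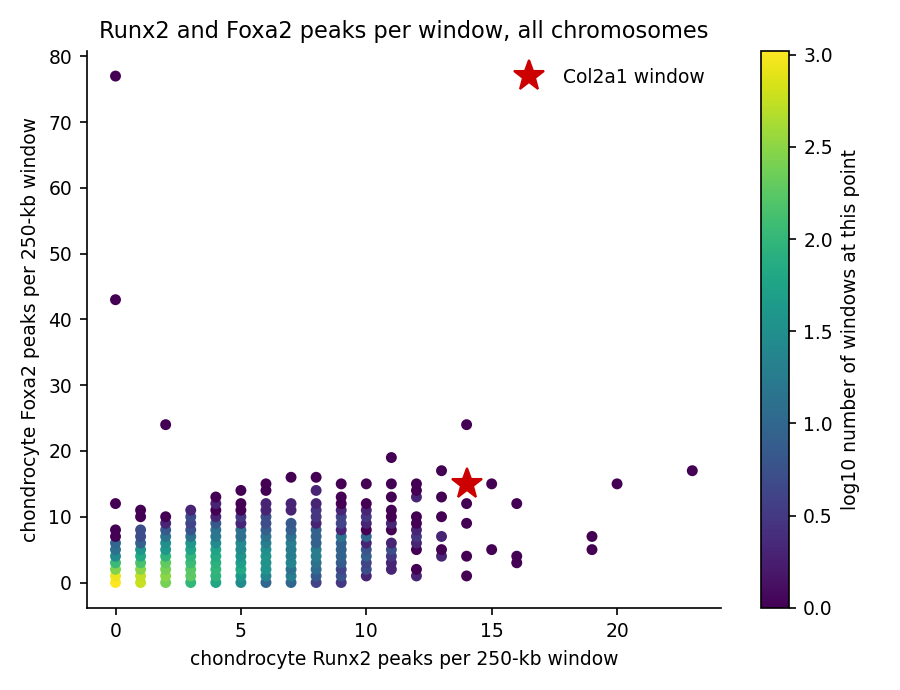
Chondrocyte Runx2 peaks against Foxa2 peaks per tiled 250-kb window of the genome, coloured by log10 of the number of windows at each point. A star marks the Col2a1 window, which is not one of the tiles. The window lies in the upper tail for chondrocyte Runx2, where 0.185% of windows have at least 14 peaks, and for Foxa2, where 0.212% have at least 15.

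The peaks of both chondrocyte lists leaned towards the gene and the sequence upstream of it. Of the 14 chondrocyte Runx2 peaks, 5 lay within the gene limits, 8 upstream and 1 beyond the 3′ end. Foxa2 was similar, with 5 in the gene, 9 upstream and 1 just past the 3′ end. Osteoblast Runx2 had 1 in the gene, 3 upstream and 2 beyond the 3′ end. In the same order, 3T3 Runx2 at day 3 had 4, 18 and 11. The Runx2 day 0 list had 0, 9 and 7, and the GFP day 3 list 0, 3 and 3. From the first to the last of the 15 Foxa2 peaks was 74.2 kb (chr15:97805757-97879964). That stretch, set by the Foxa2 peaks, also took 11 of the 14 chondrocyte Runx2 peaks, 3 of the 6 osteoblast Runx2 peaks and not the Jun peak. Of the 3T3 peaks, it took 15 of 33 Runx2 peaks at day 3, 3 of 16 of the Runx2 day 0 list and 0 of 6 of the GFP day 3 list. No mm9 annotation was used, so peaks were not assigned to exons or introns. By the gene order of the RefSeq table of GRCm38.p6, Tmem106c is the next gene on the 3′ side and Senp1 the next on the 5′ side, and peaks in the flanks may lie nearer to a neighbour than to Col2a1.

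Joined where they overlapped or touched, the 91 peaks formed 52 regions. Of these, 32 held 1 list, 13 held 2, 4 held 3, 2 held 4, and 1 held 6. A peak of the primary cells was present in 27 regions, and 25 held 3T3 peaks alone. Of the 52 regions, 7 joined 2 or more of the 4 primary-cell lists.

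Peaks that no other list overlapped made up 9 of the 15 Foxa2 peaks, beside 72.8% of the whole Foxa2 list, and 6 of the 14 chondrocyte Runx2 peaks, beside 21.3%. They were 2 of the 6 osteoblast Runx2 peaks, beside 21.7%. Among the 3T3 lists they were 13 of the 33 Runx2 peaks at day 3, beside 38.4%, and 1 of 16 of the Runx2 day 0 list, beside 11.0%.

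The region at the 5′ end of the gene joined 3 of the primary-cell lists. It spanned 202 bp (chr15:97835273-97835474), its centre 274 bp upstream of the 5′ end, and held Runx2 of chondrocytes, Runx2 of osteoblasts and Foxa2 of chondrocytes. The lists are not sorted by position, and what orders them is not stated. In that file order the chondrocyte Runx2 peak was entry 67 of 15390, the earliest of the 14, and the Foxa2 peak was entry 589 of 14738, also the earliest of its 15. The osteoblast Runx2 peak here stood later, at entry 3682 of 10241. The Runx2 peaks of the 2 cell types shared 113 bp, the Foxa2 and chondrocyte Runx2 peaks 24 bp, and the Foxa2 and osteoblast Runx2 peaks 56 bp.

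None of the 4 3T3 lists had a peak in the 5′ end region. The first 1% of the chondrocyte Runx2 list, 153 peaks in file order, was taken as a comparison after this was seen. Of these, 83.7% overlapped a peak of some 3T3 list, with the GFP lists counted, 90.2% an osteoblast Runx2 peak and 32.7% a Foxa2 peak. The 3T3 share was 71.2% for Runx2 at day 3 and 61.4% for the Runx2 day 0 list. It was 35.9% for the GFP day 3 list and 27.5% for the GFP day 0 list. Over the whole chondrocyte Runx2 list these 4 shares were 52.7%, 48.2%, 13.6% and 2.86%. The Col2a1 5′ end peak, within that first 1%, had the osteoblast Runx2 and Foxa2 peaks but no 3T3 peak.

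**Figure D4:**
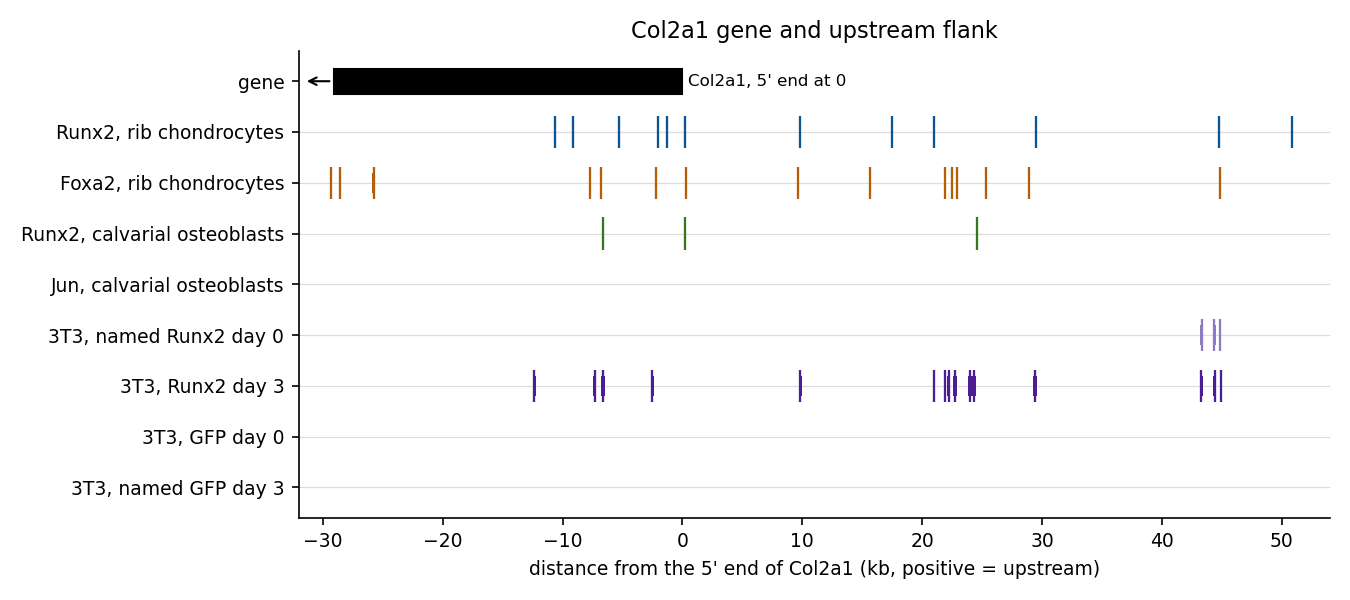
Peaks within and near Col2a1, drawn to scale by list as distance in kb from the 5′ end, with each peak at its own width. Runx2 and Foxa2 peaks of chondrocytes stack 2.11 kb inside the gene and at the 5′ end, where an osteoblast Runx2 peak joins them.

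Inside the gene, 1 more region joined Runx2 and Foxa2 of chondrocytes. It spanned 259 bp (chr15:97832864-97833122), 2.11 kb into the gene from its 5′ end, with Runx2 at entry 4075, Foxa2 at entry 2027 and 49 bp shared by the peaks. No osteoblast or 3T3 list had a peak there. The other 4 chondrocyte Runx2 peaks of the gene body stood alone, at distances of 1.29, 5.26, 9.11 and 10.6 kb from the 5′ end, and came later in the list, between entries 8338 and 13283. The narrowest of them, chr15:97829822-97829853, was 32 bp wide.

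Deeper in the gene, no Foxa2 peak overlapped chondrocyte Runx2. A Foxa2 peak 7.74 kb from the 5′ end (chr15:97827302-97827417) was early in its list, at entry 906, and overlapped no other list. At 6.67 kb a region of 446 bp (chr15:97828203-97828648) held Foxa2, osteoblast Runx2 and 3T3 Runx2 at day 3, but not chondrocyte Runx2. The Foxa2 and osteoblast Runx2 peaks shared only 17 bp there. Towards the 3′ end, Foxa2 peaks stood alone at chr15:97809221-97809480, chr15:97806479-97806583 and chr15:97805757-97805880, the last just beyond the gene limit. In that order they were entries 14713, 7322 and 3226 of 14738.

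In 3T3 cells the gene body held 4 peaks, all of Runx2 at day 3. One belonged to the 446-bp region, and the others stood alone 2.52, 7.32 and 12.4 kb from the 5′ end, at entries 30707, 38936 and 21747 of 50180. No peak of the Runx2 day 0 list or of either GFP list lay in the gene.

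Upstream of Col2a1, Runx2 and Foxa2 of chondrocytes met at 2 further places. At 9.78 kb a region of 357 bp (chr15:97844706-97845062) held both, with 15 bp shared, together with 3T3 Runx2 at day 3. The chondrocyte Runx2 peak was late here, at entry 15069 of 15390. At 44.8 kb a region of 333 bp (chr15:97879780-97880112) held Runx2 at entry 3087, Foxa2 at entry 841, 3T3 Runx2 at day 3 and a peak of the Runx2 day 0 list. The day 3 peak was entry 31455 of 50180, and that of the Runx2 day 0 list entry 24767 of 31013. In this region the 92 bp shared by the chondrocyte Runx2 and Foxa2 peaks was the widest overlap of the 2 factors in the window.

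Between them lay a cluster of peaks, singled out after its values were seen. Over 3.73 kb (chr15:97855965-97859696), from 20.9 to 24.6 kb upstream, 11 peaks formed 8 regions: 6 of 3T3 Runx2 at day 3, 3 of Foxa2, 1 of chondrocyte Runx2 and 1 of osteoblast Runx2. The Runx2 day 0, GFP and Jun lists had none. Chondrocyte Runx2 stood alone at chr15:97852493-97852629 and at 50.8 kb upstream and Foxa2 alone at 15.6, 25.3 and 28.9 kb. At 29.4 kb a chondrocyte Runx2 peak, entry 4876, was joined by 3T3 Runx2 at day 3.

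Foxa2 and Runx2 of chondrocytes therefore shared some places and not most. Of the 14 Runx2 peaks, 4 overlapped Foxa2 by at least 1 bp (28.6%, 8.39 to 58.1), beside 18.3% over the whole Runx2 list. In the other direction 4 of the 15 Foxa2 peaks overlapped Runx2 (26.7%, 7.79 to 55.1), beside 19.2% over the whole Foxa2 list. Both intervals contained the share of the whole list. Requiring the overlap to cover at least 50% of the shorter peak left 1 of these pairs, 7.14% of the Runx2 peaks. Allowing centres up to 1000 bp apart gave 7 of 14 Runx2 peaks (50.0%, 23.0 to 77.0) beside 24.6% over the list, and 6 of 15 Foxa2 peaks (40%, 16.3 to 67.7) beside 27.1%. The median distance to the nearest Foxa2 centre was 1158 bp over the 14 Runx2 peaks.

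The Runx2 peaks of chondrocytes and osteoblasts coincided at 3 places, the 5′ end and regions 97.3 kb to its 3′ side and 88.7 kb upstream. Thus 3 of 14 chondrocyte peaks had an osteoblast peak (21.4%, 4.66 to 50.8), beside 29.9% over the whole list, and 3 of 6 osteoblast peaks had a chondrocyte one (50.0%, 11.8 to 88.2), beside 45.2%. The 11 peaks of chondrocytes alone included all 5 of the gene body. Of these 11, 3 overlapped Foxa2, 4 overlapped 3T3 Runx2 at day 3 and none overlapped Jun, beside 22.4%, 43.5% and 12.2% of the 10782 chondrocyte-only peaks of the whole list. The 3 of osteoblasts alone lay 6.67 kb inside the gene, 24.5 kb upstream and 54.2 kb to the 3′ side.

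Foxa2, profiled in chondrocytes, also met osteoblast Runx2. Of the 6 osteoblast Runx2 peaks, 2 overlapped a Foxa2 peak (33.3%, 4.33 to 77.7), beside 4.93% over that list. Seen from Foxa2, 2 of 15 peaks did so (13.3%, 1.66 to 40.5), beside 3.48%. Both intervals contained the share of the whole list.

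The single Jun peak, 70 bp wide (chr15:97923724-97923793) and late in its list at entry 13280 of 14937, lay in the most widely shared region of the window. That region spanned 630 bp (chr15:97923463-97924092), 88.7 kb upstream, and held 13 peaks of 6 lists. They were 1 each of Runx2 in chondrocytes (entry 1264), Runx2 in osteoblasts (entry 912) and Jun, 4 of 3T3 Runx2 at day 3, 4 of the Runx2 day 0 list and 2 of the GFP day 3 list. Foxa2 and the GFP day 0 list were absent. A peak in a GFP list has no tagged Runx2 under its name, though under the crossed labels that list is tied to the Runx2 sample. With 1 of 14 chondrocyte (7.14%, 0.181 to 33.9) and 1 of 6 osteoblast Runx2 peaks (16.7%, 0.421 to 64.1) overlapping Jun, the shares over the whole lists were 17.8% and 25.3%. Widening the window by 100 kb at each end raised the Jun count from 1 to 7.

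The other distal region of both primary Runx2 lists was narrow, 158 bp (chr15:97737722-97737879) and 97.3 kb from the 5′ end, on the 3′ side. It held Runx2 of chondrocytes at entry 2725, of osteoblasts at entry 4264, the Runx2 day 0 list at entry 854 and 3T3 Runx2 at day 3 at entry 632. Foxa2, Jun and both GFP lists had no peak there.

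Around the gene the 3T3 lists differed. From chr15:97794934 to 97878292, a stretch of 83.4 kb bounded by the nearest peaks of the Runx2 day 0 and GFP lists and chosen after they were seen, 3T3 Runx2 at day 3 had 12 of its 33 peaks, and by construction none overlapped the Runx2 day 0 list. Of its other 21 peaks in the window, 15 did (71.4%), among them the mutually overlapping peaks of the region 88.7 kb upstream. The same stretch held 10 of the 14 chondrocyte Runx2 and 14 of the 15 Foxa2 peaks. Both crossed lists lacked peaks in the stretch by its definition, whichever sample each is assigned to, so their absence there is not a finding. The 71.4% depends on the assignment: with the lists exchanged, 5 of the other 21 day 3 peaks (23.8%) met the day 0 list.

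Place in the list also differed between the 12 peaks of the stretch and the other 21. The 12 peaks stood between entries 14150 and 48567 (median 31108.5) of the day 3 list, which is longer than the day 0 list. The median was 21199 for the other 21 and 25090.5 for the whole list. Those 21 include the mutually overlapping peaks 88.7 kb upstream, at entries 1120 to 2089. From entry 14150 on, 37.4% of all day 3 peaks overlapped the Runx2 day 0 list, beside 51.4% of the whole list. Cut to the 31013 entries of the day 0 list, the day 3 list kept 6 of the 12, and 69.4% of its peaks overlapped day 0. The part that place in the list plays in how the 3T3 lists differed around the gene was not tested.

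Over the window, 15 of the 33 day 3 peaks overlapped the Runx2 day 0 list (45.5%, 28.1 to 63.6), and 5 overlapped the GFP day 3 list (15.2%, 5.11 to 31.9), beside 15.9% of the whole list. With the crossed lists exchanged, those 45.5% and 15.2% trade places. Of these overlaps, 4 of the 15 and 4 of the 5 came from mutually overlapping day 3 peaks in the region 88.7 kb upstream. The intervals count such peaks as separate. With the primary cells, 9 day 3 peaks overlapped chondrocyte Runx2 (27.3%, 13.3 to 45.5), beside 18.4%, and 4 overlapped Foxa2 (12.1%, 3.40 to 28.2), beside 3.24%. Of the 9, 4 were again the mutually overlapping peaks 88.7 kb upstream, all of which met the same chondrocyte Runx2 peak. From the chondrocyte side, 6 of 14 Runx2 peaks had a day 3 peak (42.9%, 17.7 to 71.1), beside 52.7%, and 3 of 14 a peak of the Runx2 day 0 list, beside 48.2%. The GFP day 3 list met 1 of the 14, beside 13.6%. Osteoblast Runx2 shared 3 of its 6 peaks with day 3 (50.0%, 11.8 to 88.2), beside 58.5%.

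Foxa2 of chondrocytes and Runx2 of 3T3 cells at day 3 overlapped at 4 of 15 Foxa2 peaks (26.7%, 7.79 to 55.1), beside 10.8% over the Foxa2 list. The share was 6.67% when 50% of the shorter peak had to be shared, and 0% with every list cut to its first 10241 peaks. With centres within 1000 bp, a setting added after the data were seen, it was 9 of 15 (60.0%, 32.3 to 83.7), beside 20.6%. The interval for overlap contained the share of the whole list and that for nearness did not, though neighbouring peaks of a locus are not independent. The window also held 33 day 3 peaks against a mean of 6.64 per window, and the whole-list share was not taken at like density. The part of that density in the nearness share was not tested.

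**Figure D5:**
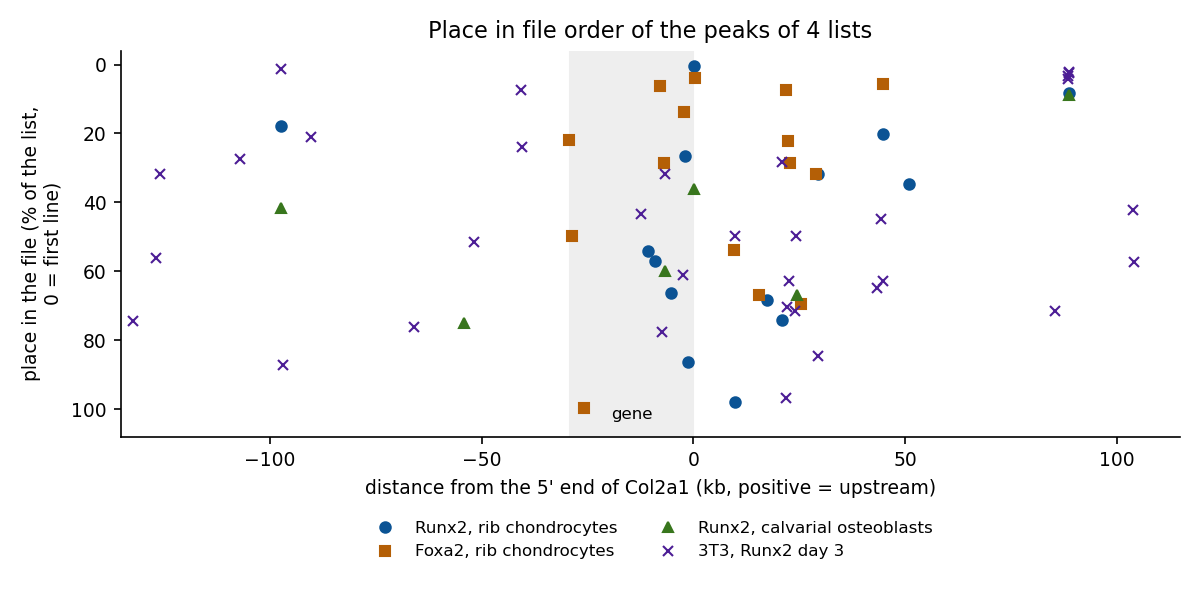
Place of Col2a1 peaks in the file order of their lists, as percent of the list's length, against distance from the 5′ end. Markers tell the lists apart, and not every list is drawn. Peaks are spread over the lists, with medians at 44.5% for chondrocyte Runx2 and 28.5% for Foxa2, and the 5′ end peaks of these lists lie at 0.435% and 4%.

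In file order the locus's peaks were spread over their lists. The first 10% of a list held 2 of the 14 chondrocyte Runx2, 4 of the 15 Foxa2, 1 of the 6 osteoblast Runx2, 5 of the 16 Runx2 day 0, 6 of the 33 day 3 and 1 of the 6 GFP day 3 peaks. Mutually overlapping peaks of the region 88.7 kb upstream made up 4 of those 5 Runx2 day 0 peaks and 4 of those 6 day 3 peaks. The 14 chondrocyte Runx2 peaks ran from entry 67 to 15069, with a median of 6850 (44.5% of the list). Foxa2 ran from 589 to 14713, with a median of 4194 (28.5%), and osteoblast Runx2 from 912 to 7679, with a median of 5199.5 (50.8%). In width, the median of the chondrocyte Runx2 peaks was 158 bp, above the 136 bp of the whole list. For Foxa2 it was 105 bp beside 120 bp, and for osteoblast Runx2 155.5 bp beside 186 bp.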

How the data were processed

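The 8 peak lists hold chromosome, start and end coordinates (in bp) as the authors deposited them, with no score. Bowtie, DiffBind and build mm9 are named in the submitters' processing notes, without roles; peak caller, threshold, control and pooling of libraries are not given in the sources used here. Members and lists were chosen with earlier results of these data known. Starts were written 1-based. Peaks overlapped when they shared at least 1 bp; peaks that overlapped or touched were joined into regions. Counts have exact Poisson and shares Clopper-Pearson 95% intervals. Background came from 7555 tiled windows of 250 kb and from whole lists. Regions are named if they hold 2 or more primary-cell lists or lie within 10 kb of the gene; others mentioned were chosen after their values were seen. Nothing ties replicate libraries to separate animals. Python 3.11.15 with NumPy 2.4.6, SciPy 1.17.1, pandas 2.3.3 and matplotlib 3.10.9 was used; overlap counts were tested on simulated intervals, and checked against bedtools 2.31.1 in 56 pairs of lists, with 0 differing. Alternatives changed overlap, width, list length, window, joining and the crossed labels.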

Additional observations from a re-analysis of the deposited data

How the results depend on the processing

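Of 213 values recomputed for 29 results under 15 settings, 126 stayed within their interval or within 1.5 times the main count and 87 moved. Moved values follow. With 50% of the shorter peak required to be shared, Foxa2 met 7.14% of chondrocyte Runx2 peaks, and chondrocyte Runx2 and 3T3 day 3 each met 6.67% of Foxa2 peaks. The wider 50% of each list left 6 Foxa2, 1 osteoblast Runx2, 0 Jun, 20 day 3 and 1 GFP day 3 peaks, 32 regions (10 in 2 or more lists) and 0 osteoblast-only Runx2 peaks; osteoblast Runx2 then met chondrocyte Runx2 in 100% and Jun in 0%, and day 3 met GFP day 3 in 0%. Windows as dense were 0.0289% for chondrocyte Runx2, 1.11% for Foxa2, 42.2% for osteoblast Runx2, 100% for Jun, 1.36% for Runx2 day 0, 0.664% for day 3 and 47.5% for GFP day 3. The first 50% in file order left 7 chondrocyte Runx2, 3 osteoblast Runx2, 0 Jun, 9 Runx2 day 0, 17 day 3 and 2 GFP day 3 peaks, 27 regions (9 shared), 4 chondrocyte-only and 0 osteoblast-only peaks; osteoblast Runx2 met chondrocyte Runx2 in 100% and Jun in 0%. Windows as dense were then 0.725%, 0.108%, 8.50%, 100%, 5.39%, 2.55% and 32.3% in the same order of lists. With every list cut to its first 10241 peaks, 0 Jun, 8 Runx2 day 0, 6 day 3, 3 GFP day 3 and 7 chondrocyte-only Runx2 peaks were left. Jun met 0% of osteoblast Runx2 and day 3 met 0% of Foxa2 peaks, while day 3 peaks met Runx2 day 0 in 100% and GFP day 3 in 66.7%; windows as dense were 0.0888% for Foxa2, 4.91% for osteoblast Runx2, 100% for Jun, 2.95% for Runx2 day 0, 6.48% for day 3 and 24.0% for GFP day 3.

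Within the gene and 20 kb around it lay 8 chondrocyte Runx2 (7 of them chondrocyte-only), 9 Foxa2, 2 osteoblast Runx2 (1 osteoblast-only), 0 Jun, 1 Runx2 day 0, 7 day 3 and 1 GFP day 3 peaks in 20 regions (5 shared). Jun met 0% of osteoblast Runx2, day 3 met 12.5% of chondrocyte Runx2, and day 3 peaks met Runx2 day 0 in 14.3% and GFP day 3 in 0%. A window wider by 100 kb at each end held 7 Jun, 25 Runx2 day 0, 54 day 3, 1 GFP day 0 and 11 GFP day 3 peaks, 5 osteoblast-only Runx2 peaks and 84 regions (34 shared). Joining across 1000 bp gave 28 regions. Exchanging the crossed lists gave 6 peaks for Runx2 day 0 and 16 for GFP day 3, and day 3 peaks met them in 15.2% and 45.5%. Removing peaks that overlap a GFP list left 0 Jun peaks, with 0% of osteoblast Runx2 met by Jun and 0% of day 3 by GFP day 3. Centres within 1000 bp, added after seeing the data, put day 3 beside 60.0% of Foxa2 peaks. Unless a setting takes the peaks away by its construction, the cause was not tested. Depth is unknown, so an absent peak does not show absent binding. No paired analysis was possible because each group has a single list and no replicate values.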

Other observations

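Windows of 250 kb with 10 or more peaks were compared with the Col2a1 window by Pearson's r of log2(count + 1) over the 8 lists, as a description over 4419 windows. The points share the list sizes, which range from 2475 to 50180 peaks; their part in r was not tested. The 3 most alike were chr15:27250001-27500000 (r = 0.995), chr2:59250001-59500000 (r = 0.982) and chr19:53500001-53750000 (r = 0.981). The first held 11 chondrocyte Runx2, 11 Foxa2, 5 osteoblast Runx2 and 1 Jun peaks.

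The 4 windows that reached both chondrocyte counts of the Col2a1 window were chr6:144000001-144250000, with 15 Runx2 and 15 Foxa2 peaks, chr7:86000001-86250000, with 23 and 17, chr7:124500001-124750000, with 20 and 15, and chr19:5750001-6000000, with 14 and 24. In the chr6 window osteoblast Runx2 had 2 peaks and Jun 1. The chr19 window differed in the other lists, with 25 Jun peaks and 21 of the GFP day 0 list.

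Of the 16 peaks of the Runx2 day 0 list, 15 overlapped 3T3 Runx2 at day 3 (93.8%, 69.8 to 99.8), beside 81.8% of that whole list. The list is taken here under the name it carries, though the labels tie it to the GFP day 3 sample. Some of its 16 peaks overlap one another, and the interval counts them as separate.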
